A study of Mus musculus with 18 samples.

Results

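The 10 genes described here encode feedback inhibitors of the ERK pathway and ETV transcription factors: Spry1, Spry2, Spry4, Spred1, Spred2, Dusp4, Dusp6, Etv4, Etv5 and Il17rd. They were chosen by name and matched by Entrez identifier, and all 10 were found among the 36528 genes listed in the count files. All 10 passed the filter on low counts, with 143 to 4176 reads per gene and library. Polyadenylated RNA was sequenced from mouse embryonic stem cells at day 4, in 18 libraries that make 6 groups of 3. The groups were an RNF2-BAP1 double knockout and a BAP1 knockout, each with 100 nM 4-hydroxytamoxifen, and the knockout line without it (untreated knockout line). They further comprised a BAP1 C91A knock-in mutant with the drug, its line without it (untreated C91A line), and wild type. 4-hydroxytamoxifen was given for 4 days to induce Cre recombination, and every culture, controls included, received emricasan, an inhibitor of caspases. Cells of the double knockout line without the drug were not analysed here. Whether the wild type received the drug, and whether each genotype was 1 clone or several, are not given in the sources used here. Drug and Cre act in every allele comparison with an untreated line, and a contrast between lines includes any difference between the lines. Nothing says that the replicates were separate cultures, so p-values measure only the spread between these libraries.

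Fibroblast growth factor 4, made by embryonic stem cells themselves, signals through FGF receptors, RAS, RAF and MEK to the ERK kinases. Active ERK switches on genes that in turn restrain it. Sprouty and SPRED proteins hold back RAS and RAF activation, the phosphatases DUSP4 and DUSP6 remove phosphates from ERK, and IL17RD (also called SEF) acts on FGF receptors and downstream kinases. ETV4 and ETV5 are ETS-family transcription factors induced by the same pathway, and transcripts of these genes are widely used as a readout of FGF-ERK signalling. BAP1 removes ubiquitin from histone H2A, RNF2 (RING1B) adds it, and C91A replaces the catalytic cysteine of BAP1.

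RefSeq sequence upstream of the start was at hand for 7 of the 10 genes, with 8 starts, because Etv5 had a pair of them. There was none for Spry4, Dusp4 and Etv4, so Spry4 and Etv4, a pair as close in profile (r = 0.95), are not shown. Sequence is shown for Dusp6 and Spry2, a pair with closely similar profiles described below, which both fell in the BAP1 knockout. It is also shown for Etv5 at its second start, picked because it held an ETS core that the first start lacked. Each is 250 bases that end at the base before the annotated start, read 5′ to 3′ on the gene's strand, and capitals mark the ETS core GGAAGT.
Etv5, chr16:22438369-22438618, minus strand: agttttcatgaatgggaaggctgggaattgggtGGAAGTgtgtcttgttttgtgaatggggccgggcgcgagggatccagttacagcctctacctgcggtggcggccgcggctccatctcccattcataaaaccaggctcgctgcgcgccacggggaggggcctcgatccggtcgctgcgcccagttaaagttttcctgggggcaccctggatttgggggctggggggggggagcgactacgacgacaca
Dusp6, chr10:99262981-99263230, plus strand: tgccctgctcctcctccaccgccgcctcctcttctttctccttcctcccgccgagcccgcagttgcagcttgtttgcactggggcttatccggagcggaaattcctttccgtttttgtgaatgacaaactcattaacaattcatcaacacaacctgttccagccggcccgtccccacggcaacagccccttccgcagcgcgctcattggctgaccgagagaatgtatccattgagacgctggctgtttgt
Spry2, chr14:105896820-105897069, minus strand: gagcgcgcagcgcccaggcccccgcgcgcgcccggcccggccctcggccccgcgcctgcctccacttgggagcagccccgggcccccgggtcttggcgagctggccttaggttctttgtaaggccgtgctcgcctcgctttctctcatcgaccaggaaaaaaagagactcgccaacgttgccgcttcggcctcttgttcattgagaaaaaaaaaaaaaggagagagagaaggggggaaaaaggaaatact
On either strand, GGAAGT occurred in 2 of the 8 windows (Etv5 and Spred2), against 19.7% of the 32851 windows of this length in the table. Of the octamers that the repressor CIC binds, only TGAATGAA and TGAATGGA were searched. They occurred in 0 of the 8 windows and in 1.08% and 1.01% of all windows. Other forms were not searched, so windows without a match here, Dusp6 and Spry2 included, may still hold an octamer that CIC binds. A match of letters is a description and not a binding site.

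By the RefSeq annotation of GRCm38.p6, Spry1 lies at chr3:37639947-37644599, Spry2 at chr14:105891947-105896819 and Spry4 at chr18:38586247-38601347. Spred1 lies at chr2:117121071-117182279, Spred2 at chr11:19924442-20024026, Dusp4 at chr8:34807610-34819894 and Dusp6 at chr10:99263231-99267489. Etv4 lies at chr11:101769747-101785310, Etv5 at chr16:22381313-22439570 and Il17rd at chr14:27038964-27107286. Among these genes Dusp6 alone overlapped another annotated gene, the noncoding Gm34921, which held 756 reads over all libraries against 13855 for Dusp6. Since use of strand in counting is not stated, reads of that pair may be mixed.

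Depth ranged from 8.11 to 23.0 M counts per library and was lowest in the BAP1 knockout (8.11 to 17.99 M), the group in which several of these genes were also lowest. With all libraries thinned to equal depth, 7 of the 10 genes were again called lower in that group than in its untreated line. At full depth 30.3% of all genes were called lower in this comparison, and the share at equal depth is not given here. All 10 embryonic stem cell markers averaged above 1 CPM in every group, Pou5f1, Sox2 and Nanog among them. Bap1 itself stood at 139, 161 and 158 CPM in the double knockout, at 151, 147 and 152 in the knockout and at 170, 167 and 169 in its untreated line. It stood at 163, 166 and 166 in the C91A mutant, at 93.8, 84.8 and 88.0 in the untreated C91A line and at 171, 183 and 182 in wild type. Rnf2 stood at 77.4, 75.6 and 70.6 CPM in the double knockout, at 114, 127 and 128 in the knockout, at 110, 114 and 111 in its untreated line, at 119, 101 and 115 in the C91A mutant, at 95.3, 108 and 105 in the untreated C91A line and at 122, 107 and 115 in wild type. Counts over a whole gene include transcripts without the deleted exons, so a genotype can be read from them only partly.

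CPM below are read counts relative to the library total, scaled by TMM factors, and are compared only between libraries. A change is given on the log2 scale with its standard error (SE). Each adjusted p comes from the edgeR quasi-likelihood fit, Benjamini-Hochberg adjusted over 16875 genes, and 0.05 was the threshold. Between genes, levels are compared by the authors' nRPKM, which is per kilobase. In wild type Etv4 was highest at 65.0 ± 5.82 nRPKM (SD, n = 3), followed by Dusp4 at 37.7 ± 0.592 and Spry2 at 23.6 ± 2.15. Etv5 (20.2), Dusp6 (18.7) and Spry4 (17.9) came next, and in that order neighbouring ranges overlapped. Spry1 (14.1), Spred1 (11.8), Spred2 (8.77) and Il17rd (7.07) were the lowest, with no overlap between neighbours. In the BAP1 knockout the order was led by Dusp4 at 26.6 ± 0.866 nRPKM with Etv4 at 18.4 ± 0.467 behind it, and Spry4 stood last at 4.33 ± 0.308. In the untreated knockout line Spry4 was second, at 23.3 ± 0.844 nRPKM, below Etv4 at 54.9 ± 1.05.

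After BAP1 knockout, 7 of the 10 genes fell and 3 rose against the untreated line. The falls were led by Spry4, Etv4, Etv5 and Dusp6, and the rises were small. Over all genes tested in this comparison, 30.3% were called lower and 31.3% higher, so a call by itself sets no gene apart. In 7 of the 10 genes every knockout library was below every untreated one (33.0% of all genes), and in 2 every one was above (33.3%). The median log2 change of the 10 genes was -0.59, beside -0.01 for all genes.

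Among the Sprouty genes, which encode inhibitors acting between the receptor and RAF, Spry4 changed most. It stood at 21.5, 18.9 and 21.3 CPM in the 3 knockout libraries, against 108, 110 and 116 CPM in the untreated line. The groups were far apart, and knockout cells held 18.7% of the untreated level (log2 -2.42, SE 0.07, adjusted p = 9.5e-28). Spry2 stood at 45.0, 48.1 and 51.8 CPM, against 66.0, 63.1 and 63.0 CPM, also with no overlap (-0.40, SE 0.06, adjusted p = 7.4e-07). Spry1 went the other way by a small amount, with 36.1, 32.9 and 38.0 CPM in the knockout, against 31.8, 33.2 and 31.5 CPM in the untreated line. Its groups overlapped, and the call (0.16, SE 0.07, adjusted p = 0.040) was lost in 8 of 11 alternative analyses, where adjusted p ranged from 0.015 to 0.43. Leaving out any of 4 single libraries was among those 8: replicate 1 or 3 of the knockout (0.16 and 0.11) and replicate 1 or 3 of the untreated line (0.15 and 0.15).

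Both SPRED genes, whose products recruit neurofibromin to RAS, fell. Spred1 stood at 48.6, 53.3 and 51.8 CPM in the knockout, against 84.4, 87.2 and 91.2 CPM in the untreated line (-0.78, SE 0.08, adjusted p = 6.3e-12). Spred2 fell less, with 73.1, 68.1 and 65.3 CPM, against 88.5, 87.6 and 96.6 CPM (-0.40, SE 0.06, adjusted p = 1.0e-07). In neither gene did the groups overlap.

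The pair of ERK phosphatases moved apart. Dusp6, which encodes a cytoplasmic ERK phosphatase, stood at 18.9, 18.9 and 22.4 CPM in the knockout, against 41.1, 38.5 and 39.5 CPM in the untreated line, a fall to 51.4% (-0.96, SE 0.08, adjusted p = 2.6e-13). Dusp4, which encodes a nuclear phosphatase, stood at 64.7, 67.0 and 68.8 CPM, against 51.6, 48.6 and 52.4 CPM, a rise of 0.40 (SE 0.06, adjusted p = 7.0e-08). Every knockout library was below every untreated one for Dusp6 and above every one for Dusp4.

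The ETV factors fell together. Etv4 stood at 52.3, 51.4 and 49.6 CPM in the knockout, against 157, 152 and 152 CPM in the untreated line, so 33.3% of the level was left (-1.59, SE 0.06, adjusted p = 7.9e-24). Etv5 stood at 39.3, 40.2 and 39.2 CPM, against 82.6, 81.9 and 82.1 CPM, which left 48.0% (-1.06, SE 0.06, adjusted p = 1.5e-19). Il17rd, the receptor-level antagonist, rose, with 88.3, 104 and 90.7 CPM in the knockout, against 75.4, 81.4 and 79.4 CPM in the untreated line (0.25, SE 0.06, adjusted p = 0.00035). The plot of levels by library shows these groups side by side.

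**Figure D1:**
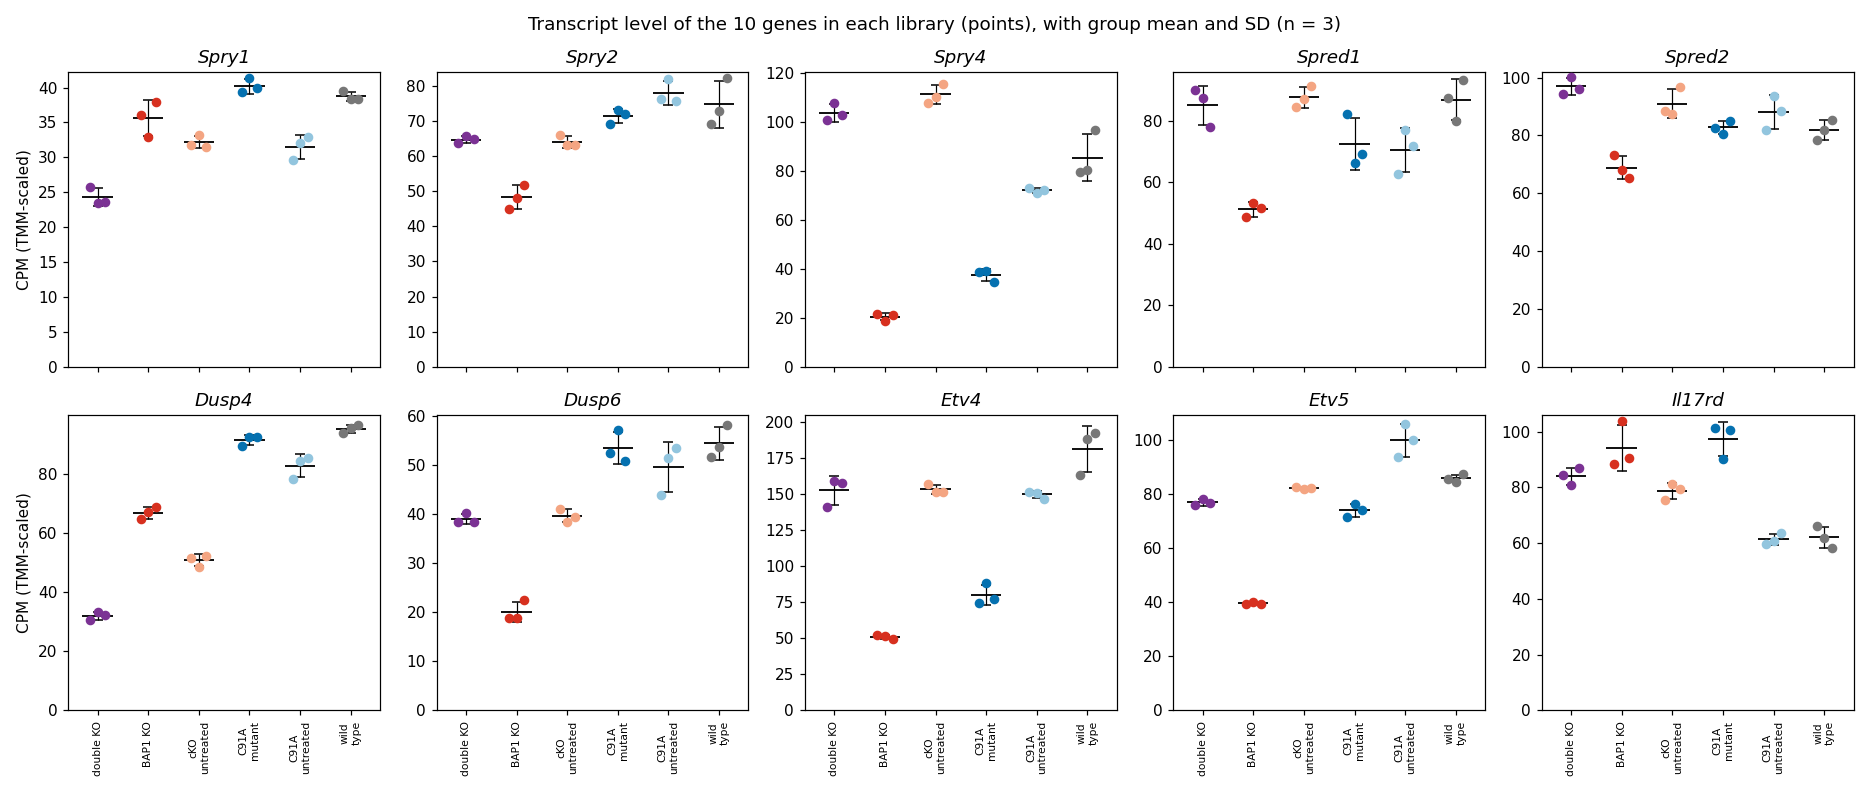
CPM (TMM-scaled, axis from 0) of each of the 10 genes in all 18 libraries, by group. Points are libraries, horizontal lines group means and bars the SD of 3 libraries. For Spry4 the knockout libraries lie between 18.9 and 21.5 CPM and the untreated knockout line between 108 and 116 CPM, while for Dusp4 the double knockout (30.5 to 33.3 CPM) is the lowest group.

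The C91A mutant changed fewer of these genes. Spry4, Etv4 and Etv5 fell, Il17rd, Spry1 and Dusp4 rose, and 4 did not pass the test, while 26.4% of all genes were called lower and 28.6% higher. The median log2 change of the 10 genes was -0.03, beside -0.01 for all genes. Spry4 stood at 39.0, 39.1 and 34.8 CPM in the mutant, against 73.0, 71.2 and 72.1 CPM in the untreated C91A line (-0.94, SE 0.07, adjusted p = 1.1e-15). Etv4 stood at 74.6, 88.0 and 77.1 CPM, against 152, 151 and 147 CPM (-0.91, SE 0.06, adjusted p = 6.4e-17). For both genes about the same share of the untreated level was left, 52.1% for Spry4 and 53.3% for Etv4, with no overlap of groups. Etv5 fell less, to 71.4, 76.2 and 73.9 CPM, against 93.6, 106 and 99.9 CPM (-0.44, SE 0.05, adjusted p = 1.2e-09).

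Il17rd had the steepest rise of the 10 genes in the C91A mutant, with 101, 90.4 and 101 CPM, against 59.8, 60.9 and 63.7 CPM in the untreated C91A line (0.67, SE 0.06, adjusted p = 1.1e-12). Spry1 stood at 39.3, 41.3 and 39.9 CPM, against 29.6, 32.1 and 32.9 CPM (0.35, SE 0.07, adjusted p = 2.5e-05), a call lost only with counts thinned to equal depth (0.21). Dusp4 was higher by 0.14 (SE 0.05, adjusted p = 0.018), with adjusted p between 0.018 and 0.19 over 11 alternatives. That call was lost in 6 of them, including without replicate 1 of the untreated line (0.11) and without replicate 2 (0.14) or 3 (0.12) of the mutant.

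Dusp6 and Spred1, which both fell after knockout, did not pass in the C91A mutant. Dusp6 stood at 52.4, 57.2 and 50.8 CPM in the mutant, against 43.9, 51.4 and 53.6 CPM in its untreated line, at a log2 change of 0.10 with a 95% interval of -0.04 to 0.24. Spred1 stood at 82.1, 66.2 and 69.1 CPM, against 62.8, 77.0 and 71.9 CPM, at 0.03 with an interval of -0.11 to 0.17. For both genes the ranges of the groups overlapped. Spry2 stood at 69.2, 73.1 and 71.9 CPM in the mutant, against 76.2, 81.8 and 75.7 CPM, with no overlap, and just missed the threshold (-0.13, interval -0.25 to -0.01, adjusted p = 0.061). It was called lower in 2 of 11 alternatives, with adjusted p between 0.035 and 0.55. Spred2, whose groups overlapped, stood at -0.09 (interval -0.20 to 0.02, adjusted p = 0.17) and was called lower in 1 of 11, without replicate 1 of the untreated line (-0.14, adjusted p = 0.045).

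**Figure D2:**
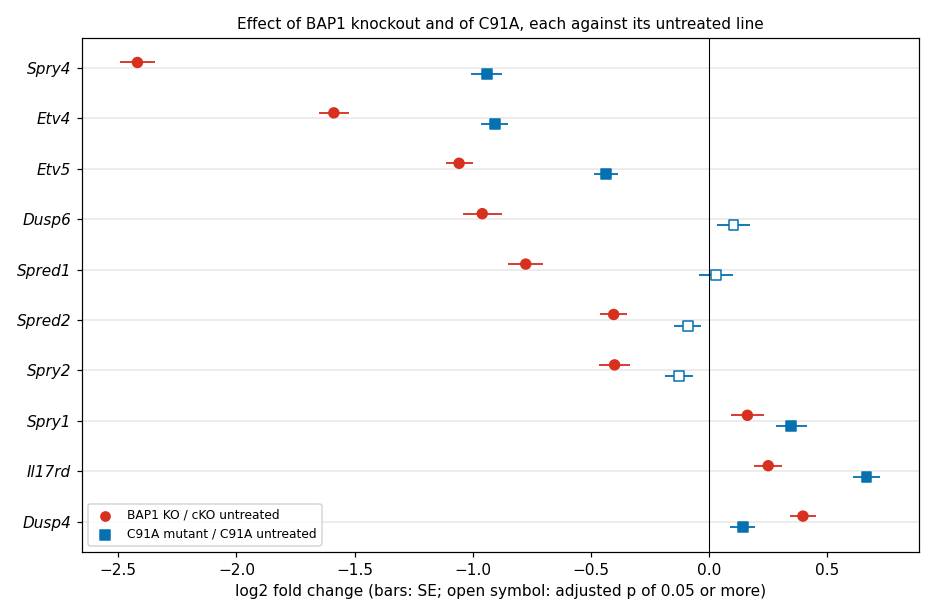
Log2 fold change of each gene in the BAP1 knockout (circles) and in the C91A mutant (squares), each against its own untreated line, with SE bars. Open symbols did not pass adjusted p of 0.05. Knockout values run from -2.42 for Spry4 to 0.40 for Dusp4, and C91A values from -0.94 for Spry4 to 0.67 for Il17rd.

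When the 2 effects were tested against each other, the change in knockout was below that in C91A for 8 of the 10 genes and above it for Dusp4. Among all genes, 13.8% had a negative difference called and 12.2% a positive one. The difference was deepest for Spry4 (-1.48, SE 0.10, adjusted p = 1.3e-14), Dusp6 (-1.06, SE 0.11, adjusted p = 4.8e-10) and Spred1 (-0.81, SE 0.10, adjusted p = 1.0e-07). Etv4 (-0.68, SE 0.09) and Etv5 (-0.62, SE 0.08) followed, with adjusted p of 8.0e-08 and 4.1e-08. Il17rd had a difference of -0.42 (SE 0.08, adjusted p = 0.00021) since it rose less in the knockout. For Spred2 it was -0.31 (SE 0.08, adjusted p = 0.0031). For Spry2 (-0.27, SE 0.09, adjusted p = 0.017) the call was lost without replicate 1 of the knockout (-0.22, adjusted p = 0.077) and at equal depth (-0.29). Dusp4 rose more in the knockout (0.26, SE 0.08, adjusted p = 0.011), also not called at equal depth (0.28). Spry1 did not pass, at -0.19 with an interval of -0.38 to 0.01.

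The lines did not start level, which enters each of these differences. In the untreated knockout line Spry4 averaged 111 ± 3.99 CPM, against 72.1 ± 0.901 CPM in the untreated C91A line (SD, n = 3 each), a log2 difference of 0.63 (SE 0.06, adjusted p = 1.4e-11). Il17rd (0.36) and Spred1 (0.31) were also higher in the untreated knockout line, and Dusp4 (-0.71), Dusp6 (-0.33), Spry2 (-0.29) and Etv5 (-0.28) were lower, among 17.3% of all genes called higher and 17.6% lower. Etv4 started at 153 ± 2.98 CPM, against 150 ± 2.50 CPM, with a difference of 0.03 and an interval of -0.08 to 0.14. Of the 3 genes that fell in both mutants, Etv4 had the closest starting levels. Bap1 itself was higher in the untreated knockout line than in the untreated C91A line (0.93, SE 0.05, adjusted p = 2.7e-19). Against its own untreated line, Bap1 rose by 0.895 in the C91A mutant and fell by 0.17 in the knockout. The part of the Bap1 level in the differences of effects was not tested.

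Set directly against the C91A mutant, the BAP1 knockout was lower for 8 of the 10 genes, where 26.0% of all genes were called lower and 24.7% higher, and the remaining 2 did not pass. Dusp6 showed the widest gap, 20.1 ± 2.05 CPM in the knockout and 53.5 ± 3.32 CPM in the C91A mutant (-1.39, SE 0.08, adjusted p = 3.8e-18). Spry4 averaged 20.6 ± 1.46 CPM and 37.6 ± 2.41 CPM (-0.85, SE 0.08), Etv5 39.5 ± 0.553 and 73.8 ± 2.37 CPM (-0.90, SE 0.06), and Etv4 51.1 ± 1.36 and 79.9 ± 7.16 CPM (-0.65, SE 0.07). Dusp4, higher in knockout than in its own control, was nevertheless lower in the knockout than in the C91A mutant (-0.45, SE 0.06, adjusted p = 3.7e-09). Spry1 (-0.16, interval -0.30 to -0.02, adjusted p = 0.055) and Il17rd (-0.06, interval -0.18 to 0.06, adjusted p = 0.44) did not pass.

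In the RNF2-BAP1 double knockout, 7 of the 10 genes were higher than in the BAP1 knockout and 3 were lower, while 32.6% of all genes were called higher and 30.6% lower. The 7 higher genes were Spry4, Etv4, Etv5, Dusp6, Spred1, Spred2 and Spry2, and the 3 lower ones were Dusp4, Spry1 and Il17rd. The BAP1 knockout libraries serve in this comparison and in that with the untreated line, so a chance error in them would push the 2 sets of values in opposite directions. Spry4 stood at 101, 108 and 103 CPM in the double knockout, against 21.5, 18.9 and 21.3 CPM in the BAP1 knockout (2.32, SE 0.07, adjusted p = 5.4e-27). Etv4 stood at 141, 159 and 158 CPM in the double knockout (1.58, SE 0.06, adjusted p = 8.1e-24) and Etv5 at 75.7, 78.1 and 76.5 CPM (0.96, SE 0.06, adjusted p = 4.9e-18). No library of the double knockout came near the knockout libraries for these 3 genes.

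Dusp6 stood at 38.5, 40.3 and 38.3 CPM in the double knockout (0.93, SE 0.08, adjusted p = 8.6e-13 against the BAP1 knockout). Spred1 was higher by 0.73 (SE 0.08), Spred2 by 0.50 (SE 0.06) and Spry2 by 0.41 (SE 0.06). Dusp4 fell to 30.5, 33.3 and 32.2 CPM in the double knockout, against 64.7, 67.0 and 68.8 CPM in the BAP1 knockout (-1.07, SE 0.06, adjusted p = 5.2e-19). Spry1 fell to 25.8, 23.5 and 23.7 CPM, against 36.1, 32.9 and 38.0 CPM (-0.57, SE 0.07, adjusted p = 7.3e-09). For Il17rd the double knockout stood at 84.4, 80.7 and 86.8 CPM (-0.15, SE 0.06, adjusted p = 0.023), a call lost at equal depth (-0.15), without replicate 2 of the BAP1 knockout (-0.09) and without replicate 2 of the double knockout (-0.13).

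A comparison that leaves out the knockout libraries sets the double knockout against the untreated knockout line. There 2 of the 10 genes were lower, 0 were higher and 8 did not pass, among 19.5% of all genes called lower and 19.3% higher. The 2 were Dusp4 (-0.67, SE 0.06, adjusted p = 1.3e-12) and Spry1 (-0.41, SE 0.07, adjusted p = 5.7e-06). Etv4 averaged 153 ± 10.1 CPM in the double knockout and 153 ± 2.98 CPM in the untreated line, with a log2 difference of -0.01 and an interval of -0.12 to 0.11. Dusp6 averaged 39.0 ± 1.10 and 39.7 ± 1.29 CPM (interval -0.17 to 0.12), and Spry2 64.6 ± 0.979 and 64.0 ± 1.69 CPM (interval -0.11 to 0.13). Spry4 averaged 104 ± 3.71 and 111 ± 3.99 CPM (interval -0.22 to 0.02). Intervals were -0.20 to 0.00 for Etv5, -0.19 to 0.09 for Spred1, -0.02 to 0.20 for Spred2 and -0.02 to 0.21 for Il17rd. For the 8 genes, not passing the test does not show equal levels. For Etv5 every double knockout library was below every untreated one. For Spry4 the highest double knockout library and the lowest untreated one both stood at 107.8 CPM. In the same comparison 9 of 9 primitive endoderm markers were higher in the double knockout (median 2.10), as were 7 of 8 tested fibroblast markers (median 1.48) and 5 of 7 trophoblast markers (median 0.53). Of 10 embryonic stem cell markers 3 were higher and 3 lower. The untreated knockout line was itself below wild type for 9 of 9 primitive endoderm markers (median -1.74), beside 20.8% of all genes. Against wild type, the double knockout was higher for 2 primitive endoderm markers and lower for 2 (median 0.22). Fibroblast markers there were 6 higher and 1 lower (median 1.13), and trophoblast markers 3 higher and 3 lower (median -0.295). Of all genes, 26.2% were called higher and 27.1% lower there.

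**Figure D3:**
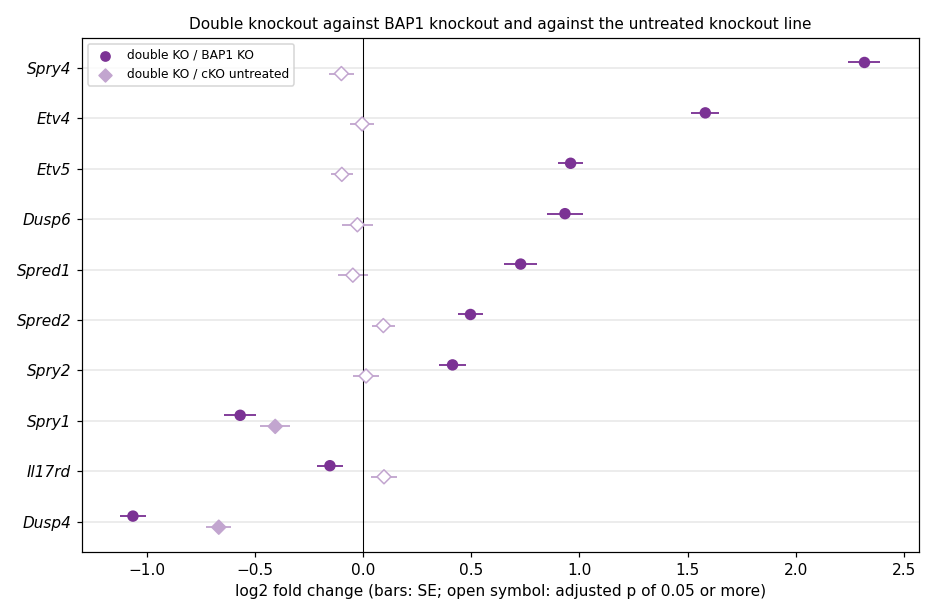
Log2 fold change of each gene in the double knockout against the BAP1 knockout (circles) and against the untreated knockout line (diamonds), with SE bars, and open symbols where adjusted p was 0.05 or more. Against the knockout, values run from -1.07 for Dusp4 to 2.32 for Spry4. Against the untreated line all but Dusp4 (-0.67) and Spry1 (-0.41) lie between -0.10 for Spry4 and 0.10 for Il17rd.

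Wild type gives a second point of comparison, from another line. The double knockout was lower than wild type for 6 of the 10 genes and higher for 3, where 27.1% of all genes were called lower and 26.2% higher. Dusp4 stood furthest below, at 32.0 ± 1.42 CPM in the double knockout and 95.3 ± 1.33 CPM in wild type (-1.58, SE 0.06, adjusted p = 1.3e-25). Spry1 (-0.67) and Dusp6 (-0.49) were also lower there, and Il17rd (0.44) and Spry4 (0.28) higher. The untreated knockout line was itself lower than wild type for 5 genes (20.8% of all genes) and higher for 3 (18.5%), with Dusp4 between 48.6 and 52.4 CPM, against 93.9 to 96.5 CPM in wild type (-0.91, SE 0.05, adjusted p = 3.3e-18), and Spry4 above wild type (0.38). The untreated C91A line was lower than wild type for 5 genes (14.2%) and higher for Etv5 (0.22) alone (13.4%), with values between -0.30 for Spry1 and 0.22. These 3 comparisons share the wild type libraries. The BAP1 knockout was lower than wild type for 8 genes (31.9%) and higher for 1 (30.9%), and the C91A mutant lower for 4 (28.5%) and higher for 1 (29.9%).

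Over the 18 libraries the 10 genes fell into more than 1 profile. Pearson's r of log2 CPM was above 0.8 for 10 of the 45 pairs and below 0 for 17, with a median of 0.35. The libraries come in 6 groups of 3, so these values mostly describe differences between groups and are given without a test. Spry4 was most like Etv4 (0.95), Spred1 (0.88), Spred2 (0.84) and Etv5 (0.81). Dusp6 and Spry2 were close to each other (0.95) and to Etv5 (0.89 and 0.91), and Spry1 and Dusp4 formed another pair (0.87). Il17rd was negative with all but Spry1, from -0.75 with Etv4. Among 12031 genes compared (mean log2 CPM no lower than 2), those most like Spry4 were D930048N14Rik (0.99), Map1a (0.98), Tcf15 (0.98), Neat1 (0.98) and Epas1 (0.97). The gene most like each other member was Mat2a for Etv4 (0.99), L1td1 for Etv5 (0.99), Slc9a5 for Dusp4 (0.98), Mt2 for Spry2 (0.97), Tnfrsf12a for Spry1 (0.97), Col2a1 for Il17rd (0.94), Tns3 for Spred2 (0.94), Atrx for Spred1 (0.93), and for Dusp6 a gene with no name in the annotation used (0.98).

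**Figure D4:**
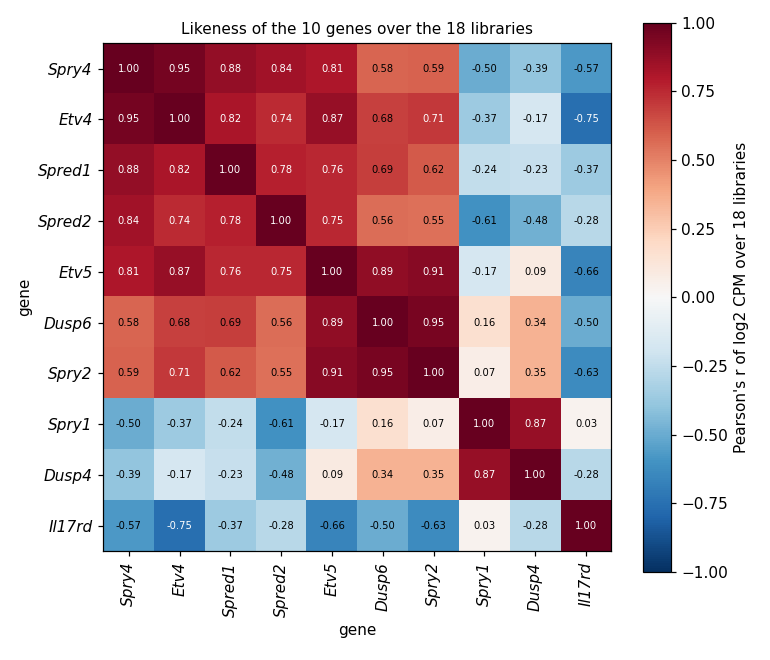
Pearson's r of log2 CPM (prior count 2) between each pair of the 10 genes over 18 libraries, as a colour scale from -1 to 1 with the value in each cell. Spry4, Etv4, Spred1, Spred2, Etv5, Dusp6 and Spry2 form a block of positive values, the lowest 0.55 for Spry2 with Spred2. Within it Dusp6 and Spry2 stand at 0.95. Spry1 and Dusp4 form a pair at 0.87.

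Other genes of the pathway were read from lists chosen for their function. Of 12 tested FGF ligand and receptor genes, 3 rose and 5 fell after BAP1 knockout (median -0.05), where 31.3% of all genes were called higher and 30.3% lower. Fgf4, the main FGF ligand of these cells, averaged 139 CPM in the knockout and 310 CPM in the untreated line (-1.16, SE 0.04, adjusted p = 1.2e-24), and 135 CPM in the C91A mutant and 266 CPM in its line (-0.98, adjusted p = 3.0e-22). The difference between these falls was small (-0.17, adjusted p = 0.031) and its call was lost in 10 of 17 alternatives, with adjusted p from 0.012 to 0.14. The receptor genes Fgfr1 (0.29 in the knockout, 0.54 in C91A) and Fgfr2 (0.71 and 0.69) rose in both mutants. In the double knockout Fgf4 was higher than in the BAP1 knockout (1.16, adjusted p = 9.8e-25) and Fgfr1 lower (-0.30). In C91A, 7 of the 12 rose and 2 fell (median 0.53), where 28.6% of all genes were called higher and 26.4% lower.

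Of 21 genes of the RAS-ERK cascade itself, 12 rose and 6 fell after knockout (median 0.20), and 11 rose and 3 fell in C91A (median 0.14). Beside this, 31.3% of all genes were called higher and 30.3% lower in the knockout, and 28.6% and 26.4% in C91A. Mapk3, which encodes ERK1, rose by 0.44 in the knockout and by 0.32 in C91A, and Map2k1, which encodes MEK1, fell by 0.18 and 0.20. Ptpn11, the phosphatase SHP2 that relays receptor signals, rose by 0.17 in the knockout and by 0.42 in C91A, and the knockout call was lost at equal depth (0.09). In the double knockout 13 of the 21 were lower than in the BAP1 knockout and 4 higher (median -0.25), with Mapk3 at -0.85, while 30.6% of all genes were called lower and 32.6% higher.

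Of 16 tested immediate early targets of ERK, 3 rose and 8 fell after knockout (median -0.42), and 6 rose and 3 fell in C91A (median 0.12). Of all genes, 31.3% were called higher and 30.3% lower in the knockout, and 28.6% and 26.4% in C91A. The difference of the 2 effects was negative for 9 and positive for 2, where 13.8% and 12.2% of all genes had such calls. Myc averaged 9.05 CPM in the knockout and 24.2 CPM in the untreated line (-1.39, SE 0.11, adjusted p = 5.5e-14). In the C91A mutant it averaged 19.6 CPM, against 19.4 CPM in its line, and the difference of effects was -1.39 (adjusted p = 2.5e-09). Egr1, a zinc-finger factor induced within minutes of ERK activation, fell by 1.10 in the knockout and by 0.28 in C91A (difference -0.83, adjusted p = 1.1e-06). Ier3 fell by 0.94 in the knockout and did not pass in C91A, where 1 of 11 alternatives called it higher (difference -1.13, adjusted p = 1.6e-06). In the double knockout 9 of the 16 were higher than in the BAP1 knockout and 5 lower (median 0.56), beside 32.6% and 30.6% of all genes, with Myc at 1.46, Ier3 at 1.06 and Egr1 at 0.96.

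Of 13 tested feedback genes related to the 10, 3 rose and 4 fell after knockout (median -0.14) and 7 rose and 2 fell in C91A (median 0.33). Calls over the whole table were 31.3% up and 30.3% down for the knockout, and 28.6% and 26.4% for C91A. Dusp9, another ERK phosphatase, fell by 0.29 in the knockout. Dusp5, a nuclear ERK phosphatase, rose in C91A (0.76, SE 0.09, adjusted p = 2.0e-09) and did not pass in the knockout, where 1 of 11 alternatives called it lower (difference -0.97, adjusted p = 2.1e-06). Spry3 was not tested, since its counts did not pass the filter. Among 14 tested genes of the list of ETS factors and CIC, 5 rose and 4 fell after knockout (median 0.03), and 8 rose and 1 fell in C91A (median 0.35), against those same shares. Cic, the repressor of Etv4 and Etv5, fell by 0.20 in the knockout, and Etv3, an ETS repressor, by 0.33. Ets2 rose by 0.48 in C91A and did not pass in the knockout (difference -0.54, adjusted p = 2.8e-05). Etv1, the third member of the PEA3 group with Etv4 and Etv5, averaged 3.92 CPM in the knockout and 4.79 CPM in the untreated line and did not pass (-0.29, adjusted p = 0.17). At equal depth it was called lower (-0.70, adjusted p = 0.039), and no other of its 11 alternatives called it.

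**Figure D5:**
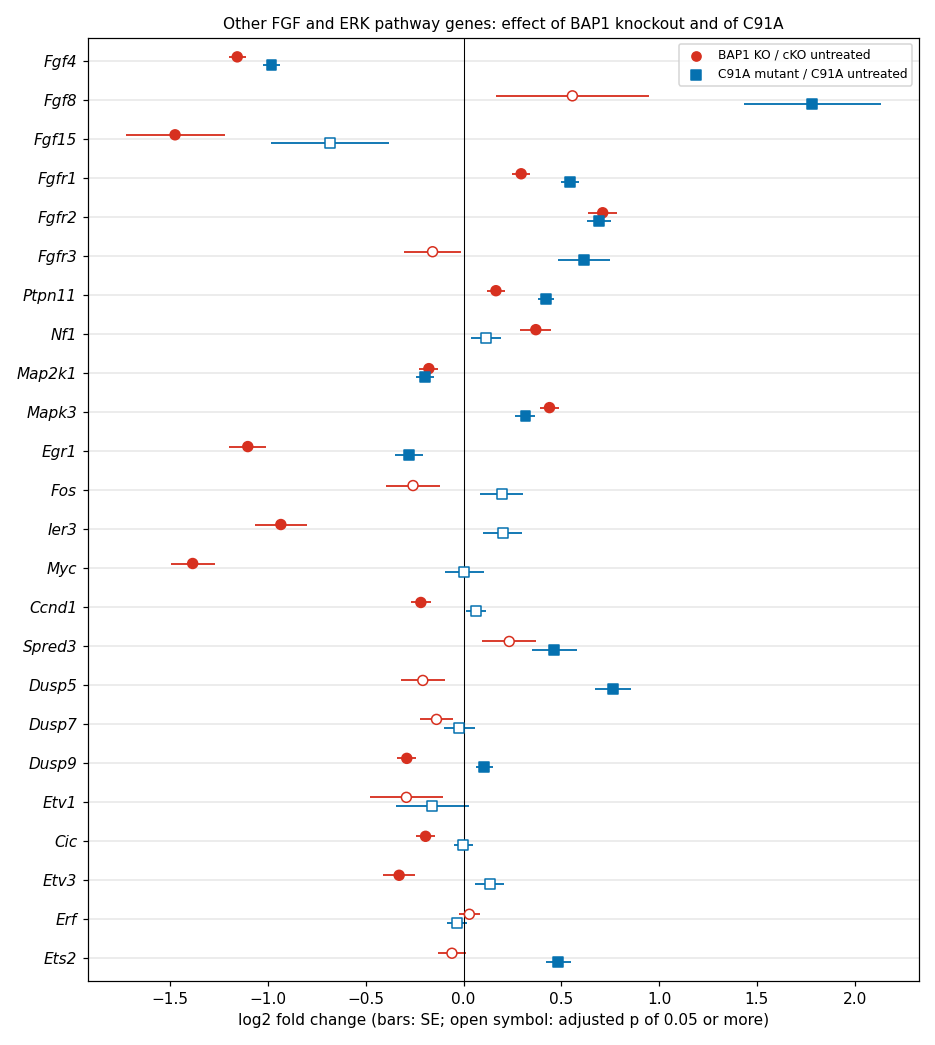
Log2 fold change of the named FGF and ERK pathway genes in the BAP1 knockout (circles) and in the C91A mutant (squares), each against its untreated line, with SE bars. Open symbols had adjusted p of 0.05 or more. Fgf4 lies at -1.16 and -0.98, while Myc lies at -1.39 in the knockout and 0.00 in C91A.

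Markers of cell state moved alongside. The summed level of 10 embryonic stem cell markers ranged from 4657 to 4848 CPM in the double knockout, 3865 to 3977 in the BAP1 knockout, 4751 to 4852 in its untreated line, 3107 to 3159 in the C91A mutant, 4030 to 4367 in its line and 4024 to 4213 in wild type. After knockout 8 of these 10 fell and 2 rose (30.3% and 31.3% of all genes), and in C91A 9 fell and 0 rose (26.4% and 28.6%). Of 9 primitive endoderm markers 7 rose and 0 fell after knockout, with a sum of 305 to 331 CPM, against 187 to 199 CPM in the untreated line. In the C91A mutant 4 of them rose and 1 fell, with 887 to 920 CPM, against 490 to 528 CPM. A single gene, Col4a1, made up most of the C91A sums, with 743 to 780.3 CPM in the mutant and 333 to 356 CPM in its line. Lama1 averaged 110 CPM in the mutant and 146 CPM in its line. Col4a1 also made up most of the sum in the knockout, where it averaged 186.5 CPM, against 88.04 CPM in the untreated knockout line. The same held in the double knockout (377 CPM) and in wild type (427.1 CPM). These 2 genes were picked after their values were seen. The double knockout held 565 to 608 CPM of these markers, and wild type 654 to 674 CPM. Of 8 tested fibroblast markers 4 rose and 0 fell in the knockout and 6 rose and 1 fell in C91A. Their 9 genes summed to 195 to 205 CPM in the knockout, 135 to 140 CPM in its untreated line, 169 to 184 CPM in C91A and 122 to 132 CPM in its line. In the double knockout the fibroblast sum was 175 to 191 CPM, the trophoblast sum 41.3 to 54.7 CPM, the neuroectoderm sum 92.5 to 105 CPM and the mesoderm sum 24.9 to 29.3 CPM. In wild type these sums were 132 to 146, 63.9 to 65.4, 99.3 to 109 and 29.4 to 35.1 CPM in the same order. Trophoblast markers summed to 30.7 to 34.3 CPM in the knockout and 27.3 to 32.4 CPM in its line, with 1 of 7 higher and 1 lower, and to 144 to 161 CPM in C91A and 119 to 124 CPM in its line, with 2 higher and 2 lower. Neuroectoderm markers summed to 112 to 124 CPM in the knockout, 83.5 to 91.3 CPM in its line, 150 to 161 CPM in C91A and 99.2 to 110 CPM in its line. Of 5 tested, 3 were higher and 0 lower in the knockout, and 1 was higher and 1 lower in C91A. Mesoderm markers summed to 13.1 to 15.6 CPM in the knockout, 17.9 to 18.3 CPM in its line, 46.5 to 50.2 CPM in C91A and 53.2 to 54.9 CPM in its line. Of 5 tested, 1 was higher and 2 lower in the knockout, and 1 was higher and 1 lower in C91A. All marker genes had reads in every group except Lum, a fibroblast gene, at 0 in the double knockout, and Elf5, a trophoblast gene, at 0 in the BAP1 knockout. The part of these markers in the changes of the 10 genes was not tested. In these bulk libraries a smaller share of cells with a transcript and less transcript per cell cannot be told apart.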

How the data were processed

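For each of 18 libraries the authors deposited 2 values per gene, a count of uniquely aligned reads and nRPKM, an RPKM adjusted by size factor, per the file headers. Alignment used GSNAP and GRCm38, per the submitters' processing notes. Versions and the use of strand are not given in the sources used here. TruSeq libraries were read from a single end, per the labels' protocols. Of 36528 genes, 31049 were named from RefSeq (GRCm38.p6). The deposited RPKM served for levels between genes and for recovering the authors' size factors.

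Low counts were removed with filterByExpr and libraries scaled by TMM. All 18 libraries entered 1 quasi-likelihood fit in edgeR 4.0.16 under R 4.3.3, with a mean for every group and 12 contrasts. The code was tested on simulated data. The common dispersion was 0.002, a biological coefficient of variation of 4.5%, and replicates differed by more than sampling noise (chi-square per degree of freedom 1.77 to 5.78). Intervals are 95% intervals from that fit. Alternatives were DESeq2 1.42.0, the authors' size factors, no filter, only the compared groups, thinning to equal depth, and leaving out each library. The 10 genes, the lists and the other named genes (Bap1, Rnf2, set pathway genes, and those most like each of the 10 by r) were chosen with earlier results of these data known. A result on a listed pathway gene is not reported here.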

Additional observations from a re-analysis of the deposited data

Results flagged for a closer look

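The effect of BAP1 knockout differed from that of C91A, by the test of the difference itself with edgeR, for 9 of the 10 genes. Of all genes, 13.8% had a negative difference called and 12.2% a positive one. The log2 differences were -1.48 for Spry4, -1.06 for Dusp6, -0.81 for Spred1, -0.68 for Etv4, -0.62 for Etv5, -0.42 for Il17rd, -0.31 for Spred2, -0.27 for Spry2 and 0.26 for Dusp4. The calls for Spry2 and Dusp4 were lost at equal depth. Untreated levels of the 2 lines differed for 7 of the 10 genes and not detectably for Etv4, Spry1 and Spred2. Of all genes, 17.6% were called lower and 17.3% higher in the untreated knockout line than in the untreated C91A line. The part of the untreated levels in the differences of effects was not tested.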

How the results depend on the processing

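Over the 10 genes in the 4 comparisons of the knockout, the C91A mutant, their difference and the double knockout against the knockout, 500 alternative values were computed, of which 473 kept their direction and call, 21 lost the call, 3 gained one and 3 changed sign. No paired analysis was possible because the labels give no replicate numbers, and those used here only name libraries, in accession order. Thinning to equal depth, which leaves fewer reads, moved counts most. It left 1 of the 10 genes higher in C91A (3 at full depth). For the difference of effects it left 1242 genes lower and 1217 higher (2321 and 2054), with 0 of the 10 higher (1). It left 1941 genes lower and 1644 higher between the untreated lines (2967 and 2924), and 2217 lower and 1823 higher in the untreated knockout line against wild type (3507 and 3126). For the untreated C91A line against wild type it left 1330 lower and 1283 higher (2403 and 2261), with 2 of the 10 lower (5). For the double knockout against the untreated line it left 1961 lower and 1941 higher (3286 and 3264). Without single libraries, 1 to 2 of the 10 genes were higher in the untreated C91A line than in wild type, 2 without its replicate 1.

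No value that changed sign had been called. In C91A, Myc was -0.003 with the authors' size factors, -0.004 with no filter and -0.013 with only the compared groups. In the double knockout against the untreated line, Etv4 was 0 with the authors' size factors and 0.001 with only the compared groups, and Spry2 was -0.007 with no filter. At equal depth Fgfr3 was 0.064 in the knockout, Spred1 -0.062 and Nf1 -0.037 in C91A, and Etv1 0.099 in the double knockout against the knockout. Also at equal depth Spred1 was 0.013 in the double knockout against wild type, Dusp6 0.009 in it against the untreated line, and Spry1 -0.04 between the untreated lines. Spry2 was then -0.001 and Il17rd 0.067 in the untreated C91A line against wild type. The cause was not tested.

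With 1 library left out at a time, C91A values ranged from -0.065 to 0.102 for Spred1, -0.06 to 0.055 for Myc, -0.081 to 0.026 for Dusp7 and -0.033 to 0.023 for Cic. The difference of effects ranged from -0.044 to 0.059 for Fgfr2, -0.012 to 0.055 for Map2k1 and -0.235 to 0.043 for Etv1. Knockout values of Erf ranged from -0.032 to 0.078. For the double knockout against the knockout, Etv1 ranged from -0.187 to 0.055, Ets2 from -0.078 to 0.029 and Erf from -0.014 to 0.097. Against the untreated line, Etv4 ranged from -0.036 to 0.046, Spry2 from -0.001 to 0.034 and Spred1 from -0.092 to 0.017. Between the untreated lines, Spry1 ranged from -0.013 to 0.056 and Spred2 from -0.006 to 0.092. Against wild type, Spred1 ranged from -0.097 to 0.029 in the double knockout and from -0.047 to 0.067 in the untreated knockout line, and Il17rd from -0.054 to 0.032 in the untreated C91A line.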
